A study of Mus musculus with 5 samples.

Results

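The immediate early transcription factors Egr1, Egr2, Egr3, Nr4a1, Nr4a2 and Nr4a3 were followed in sorted mouse bone marrow cells on 5 Affymetrix expression arrays. Their members were taken by name, as every probe set to which the platform annotation gives exactly 1 symbol equal to 1 of these 6. That gave 15 of 45101 probe sets, and 6 of the 18193 genes tested. The genes were picked with their differences between the groups already known, so the comparison of genotypes below describes them and makes no test of them. The labels assign 3 arrays to control rtTA mice and 2 to MSI2-inducible mice, all of strain C57BL/6 and with no age given. The transactivator rtTA switches on tetracycline-controlled transgenes when doxycycline is present, and MSI2 is a Musashi RNA-binding protein. The labels name neither the promoter that drives rtTA nor any induction or its length, and they do not say that replicates are different animals, so limma's p-values measure the spread between these samples, which may be technical. On the gate the labels conflict: by the sample labels the cells were lineage-low with Sca1 and Kit (LSK), and by the series text they lacked Sca1 (LK). Each value is the log2 of a deposited intensity, given in the order of replicate numbers, and each difference is the MSI2-inducible mean minus the control mean.

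EGR proteins are zinc finger factors that bind GC-rich DNA, and NR4A proteins are orphan nuclear receptors that act without a known hormone ligand. Both families are induced within minutes of a stimulus, without new protein synthesis. Signals reach their promoters through ERK and the serum response factor SRF, through cyclic AMP and CREB, and through calcium and MEF2. In blood, Egr1 is known for keeping stem cells quiescent and in their niche, Egr1 and Egr2 with Nab2 for favouring macrophage over neutrophil genes, and Nr4a1 with Nr4a3 for restraining stem cell division and myeloid leukaemia.

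Promoter letters are shown so that genes with like elements near their starts can be set beside each other's values. RefSeq windows of the GRCm38.p6 build, 250 bases before to 50 after a start, were held for 4 of the 6 genes (Egr2, Nr4a1, Nr4a2 and Nr4a3), and Egr2 had 5 windows at different starts. The 250 bases before the start of Nr4a1 lie at chr15:101266596-101266845 on the plus strand, and those of Nr4a2 at chr2:57124004-57124253 on the minus strand. Shorter stretches are given for Nr4a3, chr4:48045090-48045119 on the plus strand, and for Egr2, chr10:67537795-67537822 on the plus strand. Capitals mark the core letters of the cyclic AMP response element, TGACG or CGTCA on the opposite strand, and in Egr2 also the CArG box, which SRF reads.
Nr4a1: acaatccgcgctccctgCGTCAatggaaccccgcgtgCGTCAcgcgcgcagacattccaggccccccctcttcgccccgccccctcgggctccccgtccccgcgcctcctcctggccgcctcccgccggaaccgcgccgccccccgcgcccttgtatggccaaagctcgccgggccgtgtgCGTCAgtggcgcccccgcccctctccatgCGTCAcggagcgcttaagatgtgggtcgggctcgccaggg
Nr4a2: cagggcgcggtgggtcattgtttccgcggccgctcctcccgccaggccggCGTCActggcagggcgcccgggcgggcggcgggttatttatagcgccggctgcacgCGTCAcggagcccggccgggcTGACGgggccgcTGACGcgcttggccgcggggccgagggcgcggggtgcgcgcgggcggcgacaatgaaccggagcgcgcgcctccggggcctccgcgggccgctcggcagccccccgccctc
Nr4a3: gtCGTCAcatTGACGtctcgcattccaggc
Egr2: gtCCATATATGGgcagcgaCGTCAcggg

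The CREB core occurred 4 times in the windows of Nr4a1, Nr4a2 and Nr4a3 alike. Of all 32851 windows of the same length, 20.8% held it at least once and 0.231% at least 4 times, overlaps with the full element included. The full element TGACGTCA was in none of the 4 genes' windows and in 1.79% of all windows. Of the 5 Egr2 windows, 3 held 2 CREB cores (2 or more in 5.01% of all windows) and a CArG box, which was in 1.63% of all windows. These 3 windows overlap each other. Another Egr2 window, chr10:67537316-67537615, held a CArG box at a different place and 0 CREB cores. The MEF2 site matched once in Nr4a2 (3.19% of all windows). The EGR site GCGNGGGCG matched once each in Nr4a1 and Nr4a2 (5.55% of all windows), and the NR4A site AAAGGTCA in no window of the 4 genes (1.51% of all windows). Both strands were searched for each motif, and a match is a description of letters. Whether any of these sites is used in the sorted cells, and their part in the values that follow, was not tested.

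The arrays held signal for stem and progenitor markers. Kit, the stem cell factor receptor of the gate, lay at 9.19, 9.35 and 9.66 in the control arrays and at 8.80 and 9.50 in the MSI2-inducible arrays, well above the median of all probe sets (5.57). Of 10 stem and progenitor markers measured, 9 lay above that median in every array. Ly6a, the Sca1 gene, was not analysed here. T cell genes such as Cd3e, Cd3g, Cd3d, Cd4 and Cd8a lay below the median in every array. Mature neutrophil genes did not: 8 of 11 were above it in every array. Over all 18193 genes, 4 passed limma's test at a Benjamini-Hochberg adjusted p of 0.05, which is 0.022% of genes.

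Egr1, the family member with the strongest link to stem cell quiescence, had 1 probe set and a strong signal in every array. It lay at 10.17, 11.10 and 10.23 in the control arrays and at 11.57 and 11.50 in the MSI2-inducible arrays. Both MSI2-inducible arrays were above every control array, and control replicate 2 stood closer to them than to the other control arrays. The means were 10.50 ± 0.52 (SD, n = 3) and 11.54 ± 0.05 (SD, n = 2), a difference of 1.04. The gap between the lowest MSI2-inducible and the highest control array was 0.41, less than the 0.93 between the highest and lowest control arrays.

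Egr2, which directs myelination in nerves and macrophage genes in marrow, was low in control cells. Its brighter probe set, 1427683_at, lay at 4.39, 4.42 and 4.86 in the control arrays and at 6.84 and 6.61 in the MSI2-inducible arrays. All control values lay under that median of 5.57 and both MSI2-inducible values above it, so the groups were far apart. The means were 4.56 ± 0.26 (SD, n = 3) and 6.72 ± 0.17 (SD, n = 2), a difference of 2.17. Its other probe set, 1427682_a_at, lay at 4.30, 3.37 and 2.99 in control and at 5.55 and 5.36 in MSI2-inducible arrays, a difference of 1.90. The 2 Egr2 probe sets thus gave nearly the same difference, although the second was under the median in all 5 arrays, and at such low signals a difference is measured poorly.

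Egr3, a close relative induced by antigen receptors and neuronal activity, gave a different answer at each of its 2 probe sets. The brighter one, 1421486_at, lay at 6.37, 6.46 and 6.37 in control and at 6.48 and 6.24 in MSI2-inducible arrays, a difference of -0.04, and the groups overlapped. The dimmer one, 1436329_at, lay at 2.23, 2.94 and 2.40 in control and at 5.12 and 4.47 in MSI2-inducible arrays. It differed by 2.27 (2.52 ± 0.37, SD, n = 3, against 4.79 ± 0.46, SD, n = 2) with no overlap. Every value of this second probe set was under the median of all probe sets. A statement on Egr3 therefore rests on the probe set taken: the mean of both differed by 1.11.

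Nr4a1, the receptor also called Nur77 and a reporter of antigen receptor signalling, differed most among the 6 genes at their brightest probe sets. Its only probe set lay at 5.59, 5.83 and 5.56 in the control arrays and at 8.94 and 7.86 in the MSI2-inducible arrays. The control arrays were tightly grouped near the median of all probe sets, and both MSI2-inducible arrays lay at least 2.04 above the highest of them. The means were 5.66 ± 0.15 (SD, n = 3) and 8.40 ± 0.76 (SD, n = 2), a difference of 2.74, or 6.69-fold. The MSI2-inducible arrays themselves differed by 1.07, so the difference was 3.28 with replicate 1 alone and 2.21 with replicate 2 alone.

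Nr4a2, or Nurr1, best known for dopamine neurons, had 6 probe sets of 3 kinds. Names come from the platform annotation, which rests on a RefSeq transcript of the named gene for 5 of the 15 Egr and Nr4a probe sets; the other names could not be checked here, among them those of 1433422_at and 1433423_at, which rest on a cDNA clone. At 1455034_at it lay at 6.39, 6.37 and 6.32 in control and at 8.33 and 7.82 in MSI2-inducible arrays, a difference of 1.72 against a control SD of 0.04. At 1447863_s_at, whose suffix marks probes that can match transcripts of more than a single gene, it lay at 6.84, 7.35 and 6.87 and at 8.17 and 8.55, a difference of 1.34. The groups were apart at both of these probe sets.
The groups were also apart, but narrowly, at 1450750_a_at and 1433422_at, with differences of 0.48 and 0.46. The first of these lay at 7.67, 7.70 and 6.79 in control and at 7.70 and 8.03 in MSI2-inducible arrays, and 0.0032 separated the highest control from the lowest MSI2-inducible array. Without control replicate 3 this difference was 0.18. Being the brightest Nr4a2 probe set by its mean, it stands for the gene wherever each gene has 1 value. The other two, 1433423_at and 1450749_a_at, differed by 0.05 and -0.01 and overlapped.

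Nr4a3, or Nor1, the partner of Nr4a1 in restraining myeloid leukaemia, had 3 probe sets, all under the median of all probe sets in all 5 arrays. The brightest, 1421080_at, lay at 5.16, 5.02 and 4.82 in control and at 5.47 and 4.98 in MSI2-inducible arrays, a difference of 0.22, which was -0.02 without MSI2-inducible replicate 1 and 0.47 without replicate 2. The others differed by 0.05 and 0.02. The groups overlapped at all 3, and with signals this low the arrays may not show a difference in Nr4a3 if there was one.

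**Figure D1:**
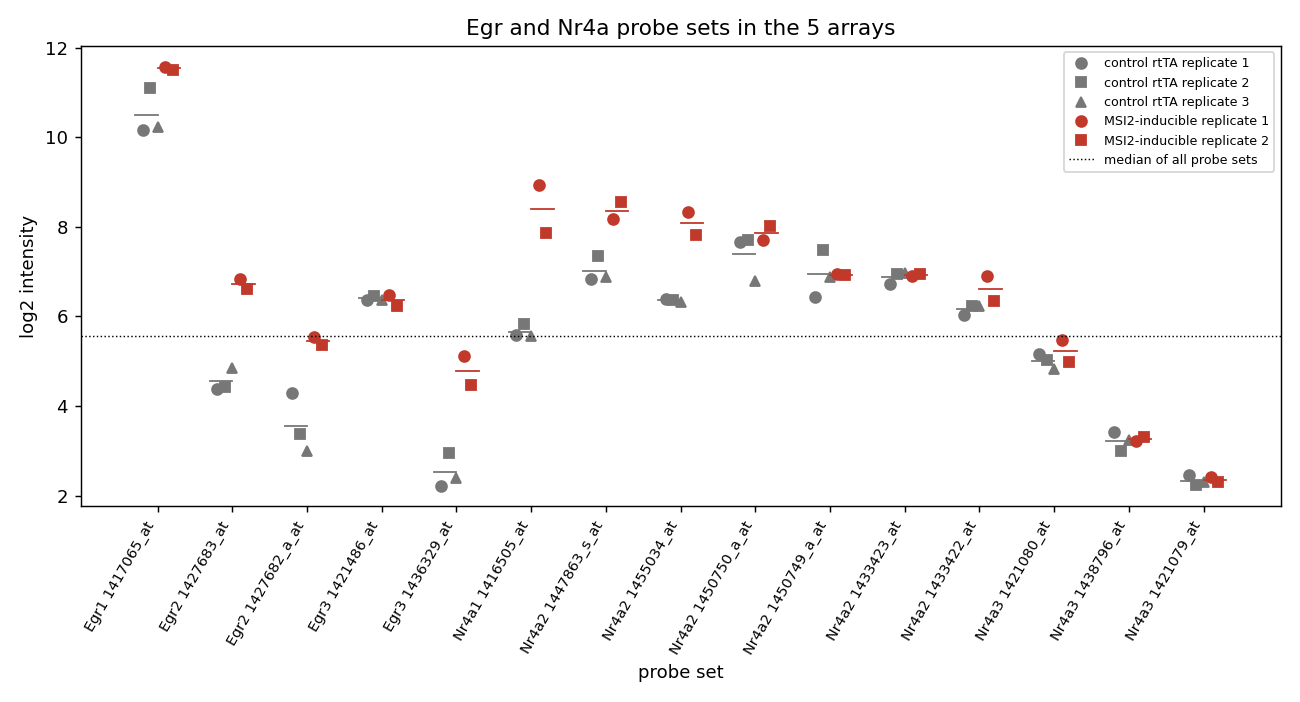
Log2 intensity (vertical axis) of each of the 15 Egr and Nr4a probe sets (horizontal axis) in the 3 control rtTA arrays (grey) and the 2 MSI2-inducible arrays (red), with short lines at the group means and a dotted line at the median of all probe sets, 5.57. Red points stand clear above grey ones for Nr4a1 and both Egr2 probe sets, and mix with them at all 3 Nr4a3 probe sets.

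Counted over all 15 probe sets, 9 were higher in both MSI2-inducible arrays than in every control array, 0 were lower in both and 6 overlapped. Without 1433422_at and 1433423_at, 8 of 13 were higher. Of the 34945 probe sets with 1 symbol, 9.54% were apart in the higher direction and 9.52% in the lower. A difference above 1 was found at 7 of the 15, and at 1.7% of those 34945. The median difference was 0.48 over the 15 probe sets and 0.00198 over all. With each gene at its brightest probe set, 4 of 6 were higher without overlap (9.27% of genes). Since the genes were chosen on this contrast, nothing is read from these counts. Of the 6 genes, 5 had at least 1 probe set with the groups apart, and Nr4a3 had none. That count rises with the number of probe sets a gene has, and the matching share of all genes was not counted.

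**Figure D2:**
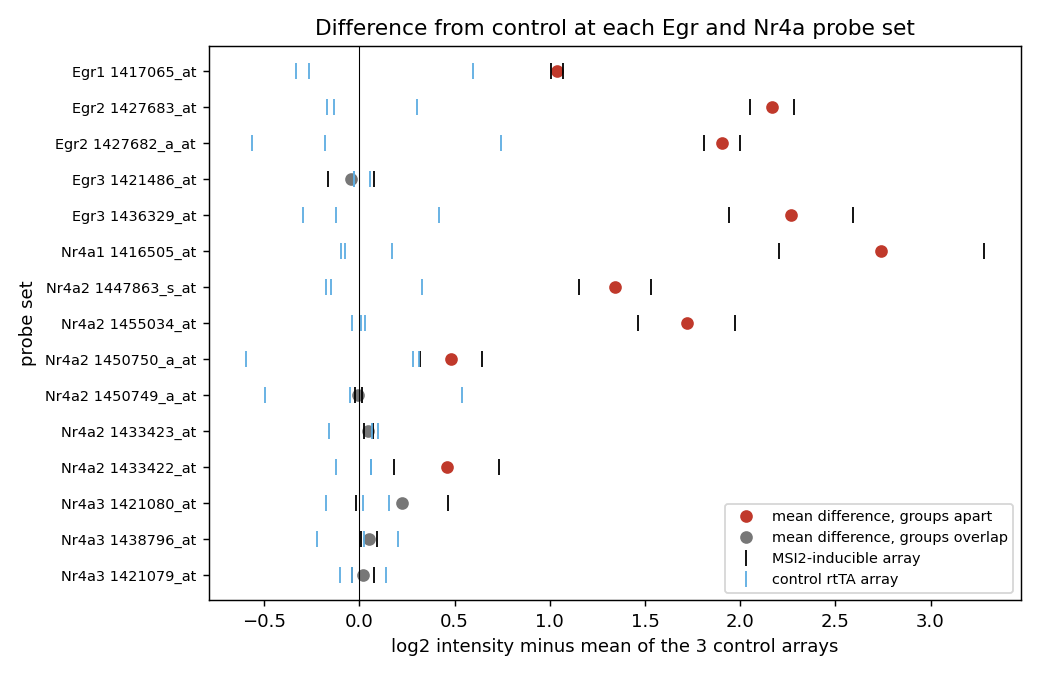
Log2 intensity minus the mean of the 3 control arrays (horizontal axis) at each Egr and Nr4a probe set (vertical axis), with a tick for each control array (blue) and each MSI2-inducible array (black) and a dot at the mean difference, red where the groups do not overlap. Differences run from -0.04 at an Egr3 probe set to 2.74 at Nr4a1, and the probe sets of Egr3 and of Nr4a2 disagree with each other.

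The control arrays also differed among themselves. Control replicate 2 was 0.89 above the mean of the other control arrays for Egr1, 0.63 above it at the dim Egr3 probe set, 0.25 above it for Nr4a1, and 0.20 below it at the brighter Egr2 probe set. Replicate 2 was the highest control array at 8 of the 15 probe sets. It was also the highest for 36 of 50 other immediate early genes, against 39.4% of all genes and 5 of 15 heat shock genes. Fos, the AP-1 partner of Jun, lay at 11.48, 12.08 and 11.50 in the control arrays. Without control replicate 2 the Egr1 difference was 1.33, and the median over the 6 genes moved from 0.76 to 0.99.

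Patterns over the 5 arrays were compared by the root mean square (RMS) difference of log2 values, each gene centred on its own mean. With the brightest probe sets, the nearest pair was Egr3 and Nr4a3 (0.19), both of which varied by less than 1 across all arrays (ranges 0.24 and 0.64). Among the genes that varied more, Egr2 was nearest to Nr4a1 (0.45), with both highest in MSI2-inducible replicate 1. Egr1 and Nr4a2 were as near to each other (0.45).
Outside the families, 4013 genes with a range of at least 1 were compared in the same way. Nearest to Nr4a1 were Sowaha (0.17), the neutrophil chemokine Cxcl2 (0.28) and the interferon-induced chemokine Cxcl10 (0.40). Nearest to Egr2 were the kynureninase gene Kynu (0.11), the E1A-regulated factor E4f1 (0.26) and the macrophage chemokine Ccl3 (0.33). Nearest to Egr1 were Khdc4 (0.16), the histone gene H3f3a (0.16) and the antiproliferative early gene Btg2 (0.17), which shared its high value in control replicate 2. Sowaha lay between 1.62 and 1.94 in control arrays, far under the median of all probe sets, a second Kynu probe set differed by -0.91, and another Khdc4 probe set by -0.12.
For the brightest Nr4a2 probe set the nearest genes were Nup50 (0.08), Scmh1 (0.08) and Prpsap2 (0.08), with 62 genes within 0.25. Other probe sets of Scmh1 and Nup50 differed by as low as -1.03 and -0.64, against 0.45 and 0.40 at those compared. For Nr4a3 the nearest genes were Higd1a, Pigs and Kcnu1, with 140 genes within 0.25, and for Egr3 Fbxw27, F5 and Tex12 (0.25 each). With 5 arrays such nearness is a description. Genes with a range under 1 were not compared, so every neighbour of Egr3 (range 0.24) and Nr4a3 (range 0.64) varied more than they did. That cutoff also limits how near a gene can come to Egr3 or Nr4a3.

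**Figure D3:**
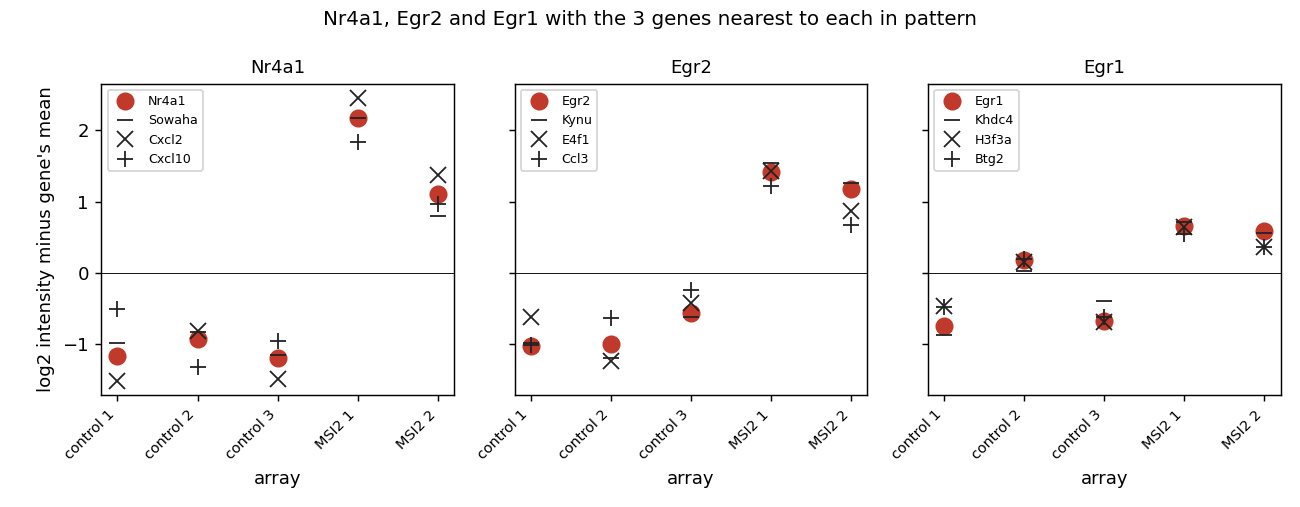
Log2 intensity minus the gene's own mean over the 5 arrays (vertical axis) in each array (horizontal axis) for Nr4a1, Egr2 and Egr1 (red dots) and the 3 genes nearest to each by RMS difference (black marks). Nr4a1 and Egr2 are low in all 3 control arrays and high in both MSI2-inducible arrays, while Egr1 and its neighbours are also raised in control replicate 2.

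Genes that work with, upstream of or below these factors, and other immediate early and heat shock genes, were read from 9 lists. These hold 207 genes in all, of which 185 had a value and the others were not analysed here. None passed limma's test adjusted over all genes (lowest adjusted p 0.128, for Zbtb16). At an unadjusted limma p under 0.05 there were 39, or 21.1% against 5.64% of all genes. Of these 39, 25 were in the list of other immediate early genes and 6 in that of heat shock genes. The 21.1% is therefore not the share among partners, upstream genes and targets. The lists were chosen with earlier results of these data known.

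No partner of the EGR proteins passed the test. The corepressors Nab1 and Nab2, of which Nab2 is itself induced by EGR proteins, differed by -0.09 and 0.46 (limma adjusted p 0.982 and 0.922), and another Nab1 probe set by -1.24. Nab2 lay at 6.52, 6.27 and 6.25 in control and at 7.34 and 6.27 in MSI2-inducible arrays, so only replicate 1 was above the controls. The remaining family member Egr4 lay at 5.81, 5.89 and 5.61 and at 6.25 and 5.91, a difference of 0.31 without overlap (adjusted p 0.917). The list of 8 had a median difference of 0.04, against 0.00189 over all genes, with 5 higher and 3 lower.

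Nuclear receptors other than NR4A, with their coactivators, had a median of -0.12 over 30 of 34 genes, 11 higher and 19 lower, of which 3 and 2 did not overlap, near the 9.27% and 9.39% of all genes. Without MSI2-inducible replicate 1 the median was 0.01. The shared dimerisation partner Rxra differed by -0.25 (adjusted p 0.922), and its other probe sets by up to 0.12. The retinoic acid receptor Rarb differed by 1.22 and Nr2f6 by 0.72, and Rxrg by 0.45, while the oestrogen-related receptor Esrra differed by -1.03 and Nr2c2 by -0.22, with limma adjusted p between 0.870 and 0.927. Control values of Rarb (mean 3.39) and Rxrg (4.14) were under the median of all probe sets, and another Esrra probe set differed by 1.47. The second Nr2f6 probe set differed by -0.08, and other Nr2c2 probe sets by up to 0.26.

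No gene of the upstream arms passed the test. SRF and ERK genes had a median of 0.01 over 12 of 20 genes, 6 higher and 6 lower. Srf itself differed by 0.15, with -0.001 at its other probe set. Its partner Elk1 differed by 0.23, though another Elk1 probe set differed by -0.35. The ERK-activated kinases Rps6ka5 and Rps6ka3 differed by -0.79 and -0.23. Each had 3 probe sets, which differed by -0.79 to -0.05 for Rps6ka5 and by -0.30 to -0.09 for Rps6ka3. CREB and protein kinase A genes had a median of 0.17 over 14 of 16, 9 higher and 5 lower. Creb1 differed by 0.27 (its 6 probe sets by -0.21 to 0.33) and the cyclic AMP phosphodiesterase Pde4d by -0.57, with 0.09 at its other probe set. Pde4b, another such phosphodiesterase that cyclic AMP induces, lay at 9.09, 9.31 and 9.38 in control and at 10.02 and 10.09 in MSI2-inducible arrays, a difference of 0.79 (SE 0.18, limma adjusted p 0.616). Its probe sets differed by -0.21 to 0.79. MEF2 and calcineurin genes had a median of 0.01 over 16, with Mef2c at -0.05 (its 5 probe sets at -0.49 to 0.13), the calcineurin subunit Ppp3r1 at 0.67 and the MEF2 repressor Hdac5 at -0.37. All 3 arms hold proteins that signals switch by phosphorylation or transport, which arrays do not measure.

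Reported EGR targets had a median of 0.17 over 22 of 25 genes, 13 higher and 9 lower, of which 4 and 2 did not overlap (9.27% and 9.39% of all genes). Zbtb16, the PLZF factor that Egr2 induces in natural killer T cells, lay at 6.17, 5.67 and 5.88 in control and at 8.19 and 8.81 in MSI2-inducible arrays. It differed by 2.59 (SE 0.26, limma adjusted p 0.128), and its 3 probe sets by 1.33 to 2.59. The cell cycle inhibitor Cdkn1a lay at 8.07, 6.55 and 7.71 and at 8.39 and 8.96, a difference of 1.23 (adjusted p 0.883), with 0.33 at its other probe set. The activation marker Cd69 differed by 1.20 (adjusted p 0.870) and Id3, an EGR target in thymocytes, by 0.23 (adjusted p 0.927).
On the low side, Gfi1, the neutrophil factor that Egr2 and Nab2 repress in macrophage differentiation, lay at 10.98, 10.66 and 10.64 in control and at 10.31 and 10.35 in MSI2-inducible arrays. It differed by -0.43 (SE 0.19, adjusted p 0.903). The matrix protein fibronectin, Fn1, differed by -0.996 (adjusted p 0.870), with -0.05 at its other probe set.

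Reported NR4A targets had a median of 0.04 over 21 of 23 genes, 14 higher and 7 lower, of which 3 and 1 did not overlap (9.27% and 9.39% of all genes). Tox2, an exhaustion factor of T cells, differed by 1.52 (limma adjusted p 0.835) from a control mean of 3.70, under the median of all probe sets, and its other probe set by 0.19. Junb, which is low in myeloid cells that lack NR4A receptors, lay at 4.86, 5.31 and 5.27 in control and at 6.17 and 5.62 in MSI2-inducible arrays, a difference of 0.75 (adjusted p 0.870). Jun differed by 0.50 (adjusted p 0.887) and the G1 cyclin Ccnd2 by -0.13 (its 7 probe sets by -0.22 to 0.11). Junb, Jun and Klf2 are also in the list of other immediate early genes, so they count in both lists.

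Other immediate early genes stood closest to the Egr and Nr4a genes in size. Their median difference was 0.75 over 50 of 51 genes, with 48 higher (50.4% of all genes) and 2 lower, and 31 higher without overlap (9.27% of genes) against 2 lower (9.39%). At an unadjusted limma p under 0.05, 25 were higher (2.87% of genes) and 0 lower (2.77%), and 0 passed adjusted over all genes. Cxcl2 lay at 5.37, 6.07 and 5.39 in control and at 9.35 and 8.27 in MSI2-inducible arrays, a difference of 3.20 (adjusted p 0.195). Phlda1 differed by 2.31 (adjusted p 0.179) and the small Maf protein Maff by 1.99 (adjusted p 0.219). Fos differed by 0.71 (adjusted p 0.870). The synaptic early gene Arc (-0.40) and the AP-1 subunit Fosl2 (-0.35) were lower in both MSI2-inducible arrays, though a second Fosl2 probe set differed by 0.43. The median of the 50, set against the control means, was 0.82 and 0.53 in the MSI2-inducible arrays and -0.11, 0.26 and -0.15 in the control arrays.

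**Figure D4:**
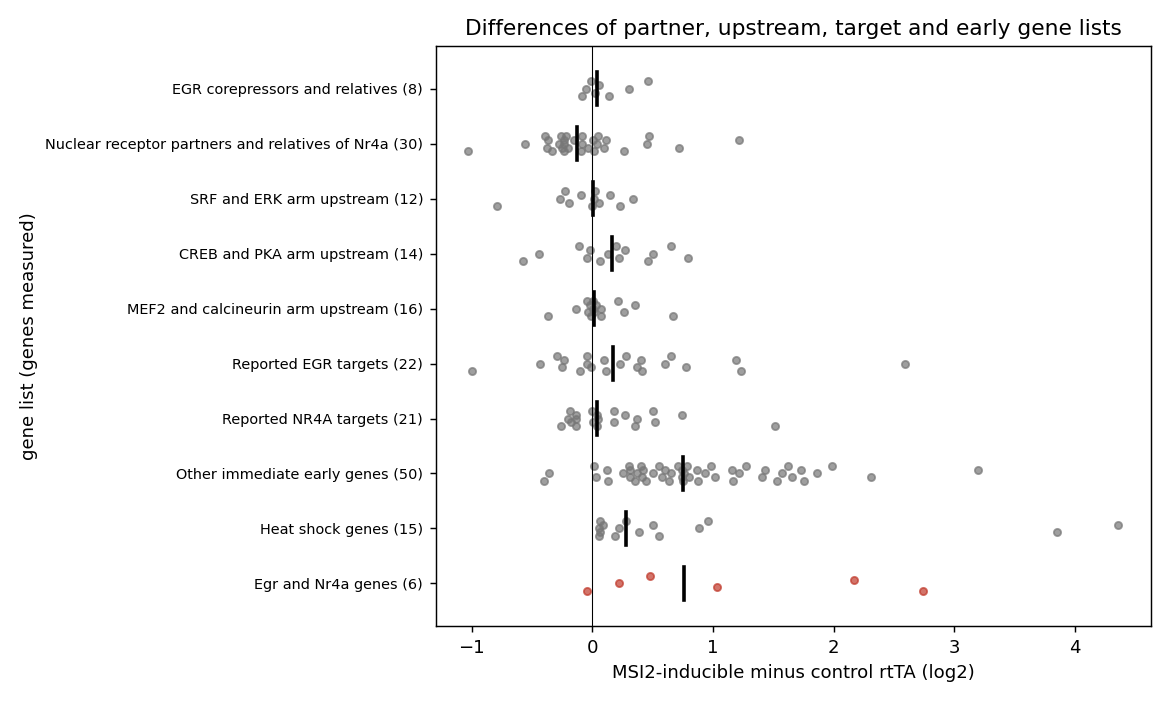
Difference between MSI2-inducible and control rtTA arrays in log2 (horizontal axis) for each measured gene (dots) of 9 gene lists and of the 6 Egr and Nr4a genes at their brightest probe sets (red), with a black bar at each list's median. The median is 0.76 for the 6 genes and 0.75 for other immediate early genes, and lies between -0.12 and 0.28 for the other lists.

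Of 17 heat shock genes listed, 15 had a value, and all 15 had a higher mean in the MSI2-inducible arrays (50.4% of all genes), 8 without overlap (9.27% of genes), with a median of 0.28. At an unadjusted limma p under 0.05, 6 were higher (2.87% of genes), and 0 passed adjusted over all genes. The inducible chaperone Hspa1a lay at 5.73, 4.25 and 4.54 in control and at 10.21 and 8.18 in MSI2-inducible arrays, a difference of 4.36 (SE 0.70, limma adjusted p 0.360). Hspa1b differed by 3.85 (adjusted p 0.474) and Hsph1 by 0.96 (adjusted p 0.427). Like Nr4a1, Hspa1a and Hspa1b were higher in MSI2-inducible replicate 1 than in replicate 2. Their part in the Egr and Nr4a values was not tested.

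Markers of other blood cells were summed as linear intensities, and fewer cells of a type cannot be told apart from less RNA per cell. The 11 mature neutrophil genes summed to between 14425 and 27219 intensity units in control arrays and to 63976 and 11959 in the MSI2-inducible arrays. All 11 had a higher mean in the MSI2-inducible arrays (50.4% of all genes), with 0 apart. The 11 monocyte and macrophage genes summed to between 6196 and 7244 in control arrays and to 12836 and 6142 in the MSI2-inducible arrays, and 3 of them (Adgre1, Cx3cr1 and Ms4a7) were under the median of all probe sets in every array. Most of that sum was the lysozyme gene Lyz2, and without it the other 10 genes summed to between 1269 and 1745 in control arrays and to 2597 and 1493 in the MSI2-inducible arrays. All 11 had a higher mean in the MSI2-inducible arrays, and 2 were higher without overlap (9.27% of genes). Ccr2, the chemokine receptor of inflammatory monocytes, lay at 6.78, 6.72 and 6.38 in control and at 8.50 and 8.09 in MSI2-inducible arrays, a difference of 1.67 (limma adjusted p 0.226). The Fc receptor Fcgr1 differed by 0.95 (adjusted p 0.883), with all arrays but MSI2-inducible replicate 1 under 5.57. Like Nr4a1 and Egr2, Ccr2 was higher in both MSI2-inducible arrays, but all monocyte and macrophage genes except Ccr2 and Fcgr1 overlapped between groups. The median difference of the 11 was 0.24. The part of neutrophil and monocyte genes in the Egr and Nr4a values was not tested.
The 10 erythroid genes summed to between 10746 and 11637 in control arrays and to 16905 and 13573 in MSI2-inducible arrays, with Hba-a1 under the median in every array. Of the 10, 9 had a higher mean (50.4% of all genes), 3 were higher without overlap (9.27% of genes) and 1 was lower without overlap (9.39%). The 3 higher were Epor by 1.16, Aqp1 by 1.39 and Car1 by 1.24 (limma adjusted p 0.616, 0.679 and 0.870). The lower was Gata1, the erythroid master factor, by -0.53 (adjusted p 0.886). Without Car2, the gene with the highest signal, the others summed to between 2699 and 4302 and to 8995 and 4311. The 9 B cell genes summed to between 446 and 703 and to 1122 and 796, with Ms4a1, Pax5 and Ebf1 under the median in every array. Among the B cell genes Vpreb1, part of the pre-B cell receptor, had the highest mean intensity. Without Vpreb1 the others summed to between 355 and 422 in control arrays and to 599 and 327 in the MSI2-inducible arrays. Both full sums were higher in both MSI2-inducible arrays, but the B cell sum without Vpreb1 was below every control array in replicate 2. The part of these genes in the Egr and Nr4a values was not tested. The 9 T and NK cell genes summed to between 662 and 1157 in control arrays and to 771 and 639 in MSI2-inducible arrays, with 7 under the median in every array. Most of that sum was Nkg7. Without Nkg7 the others summed to between 158 and 188 in control arrays and to 190 and 137 in the MSI2-inducible arrays. The 10 mast cell, basophil and eosinophil genes summed to between 1420 and 3100 and to 1801 and 2050. Of these, 2 (Cma1 and Tpsb2) were under the median in every array. Gata2, which is also in the stem and progenitor list, had the highest mean intensity. Without Gata2 the others summed to between 322 and 1577 in control arrays and to 932 and 399 in the MSI2-inducible arrays. Stem and progenitor markers summed to between 11677 and 12476 in control arrays and to 9401 and 12913 in MSI2-inducible arrays. Of these 10 markers, 8 had a lower mean in the MSI2-inducible arrays and 2 were lower without overlap (9.39% of genes). The stem cell receptor Slamf1 lay at 7.36, 7.99 and 7.66 in control and at 5.57 and 7.22 in MSI2-inducible arrays, a difference of -1.27 (limma adjusted p 0.883). Mecom, a factor that maintains stem cells, lay at 9.84, 9.88 and 9.98 and at 9.13 and 9.52, a difference of -0.58 (adjusted p 0.870). The part of stem cell marker levels in the Egr and Nr4a values was not tested.

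RNA quality was read as the 3' minus 5' log2 signal of control probe sets. For Gapdh it was 2.14, 2.60 and 2.40 in the control arrays and 2.22 in both MSI2-inducible arrays. For beta-actin it lay between -0.15 and 0.01 in control arrays and at -0.06 and -0.07 in MSI2-inducible arrays. The MSI2-inducible values lay within the control range for both transcripts.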

How the data were processed

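The authors deposited an intensity for each probe set, unlogged and already normalized between arrays. RMA, affy and R 2.11.0 are named in the submitters' processing notes, which do not give the step that undid the log. Array medians lay between 46.4 and 48.3 intensity units. Log2 was taken with no pseudocount or further normalization. Names came from the platform annotation (34945 probe sets with 1 symbol, 932 with several, 64 controls, 9160 unnamed here), and Entrez IDs brought 34741 of the symbols up to a GRCm38.p6 gene table. Each gene took its brightest probe set by mean over all arrays. Groups were compared with limma's moderated test (version 3.58.1, run in R 4.3.3, with genotype alone in the model, two-sided, Benjamini-Hochberg over 18193 genes, threshold 0.05), checked on simulated data. The number of arrays limits precision. Members and lists were chosen with earlier results of these data known. Genes named are the 6 members, 15 genes whatever their values, in each list up to 3 non-overlapping genes per direction by smallest p, and the 3 nearest in pattern to each member. Marker sums without the brightest gene were added after seeing the data. Stem cell, T cell, monocyte, B cell, erythroid and mast cell markers named were chosen after their values were seen, as were the counts of which control array was highest. Protein sequences were not used here, so the planned comparison of protein identity was not made. Figures were drawn with matplotlib 3.10.9.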

Additional observations from a re-analysis of the deposited data

How the results depend on the processing

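The count of Egr and Nr4a probe sets higher without overlap was 9, and 6 to 11 under 11 alternatives, of which leaving out 1433422_at and 1433423_at (8) was chosen after seeing the data, 6 with low values left out (fewer probe sets counted) and 11 without MSI2-inducible replicate 2. Nr4a1, Egr2, Egr1 and Nr4a2 kept their direction under every alternative run for them, while Egr3 ranged from -0.16 to 1.11 and Nr4a3 from -0.02 to 0.47. Egr2 differed by 1.62 with log2(value + 16). The median over the 6 genes was 0.76, against 1.07 with the mean of a gene's probe sets, 0.87 with array weights, 0.54 with the replicate block, and 0.54 (without control replicate 3) to 0.99 (without control replicate 2) with an array left out; the cause was not tested. The labels give both groups replicate numbers 1 and 2 but nothing pairs the mice, and same-numbered arrays had deviations that correlated at 0.134 and 0.099 over genes. Unlike-numbered pairs of replicates 1 and 2 gave -0.134 and -0.099. They must, because the deviations of 2 MSI2-inducible arrays are opposite, so these values are not separate measures of pairing. The block, in which control replicate 3 has no partner and adds nothing to a difference, gave 0 genes higher and 0 lower by limma, with 1069 at an unadjusted p under 0.05. All genes called numbered 3 higher and 1 lower, and 1 and 0 with log2(value + 16), 1 higher with array weights, 2 lower with low values left out and 2 lower with quantile normalization once more. Left-out arrays gave 0 to 0 in each direction by limma, with 726 to 2273 at an unadjusted p under 0.05, where a lone MSI2-inducible array was taken to have the spread of the controls. No gene of the 9 lists was called by limma under any of the 15 alternatives, with 25 to 77 at an unadjusted p under 0.05 (77 counts every probe set). The median of the SRF and ERK list was above 0 in 5 of the 15 and that of reported NR4A targets in 13, so neither has a firm direction. Of the 18 nearest genes, 10 were shared when the largest difference in any array replaced RMS. Alternatives that do not alter a value (probe set choice for counts over probe sets, variance model for differences) were not run for it. Signal near the floor limits Nr4a3 and the dim Egr2 and Egr3 probe sets.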
